A study of Mus musculus with 6 samples.

Results

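The linear transcripts Apoe, Prdx2 and Pex11a were followed in mouse endometrium on an array made for circular RNAs. They are 3 of the 50 probes that the scanner files pair with mRNA accessions: probe A_51_P171999 for Apoe (NM_009696), A_51_P147207 for Prdx2 (NM_011563) and A_51_P456957 for Pex11a (NM_011068). The RefSeq gene table gave a symbol for 44 of the 50 accessions, these 3 among them. They were chosen by their log2 differences between DHEA and control arrays, already known from these data, together with their roles, so their group differences are descriptions and carry no test.

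The study modelled polycystic ovary syndrome in female mice of 4 weeks of age. The DHEA group received dehydroepiandrosterone, an androgen precursor, under the skin at 6 mg per 100 g of body weight daily for 20 days in 0.2 ml soybean oil, and the control group received the oil alone. All were mated on day 21 with fertile males of their strain, which the labels do not name, and endometrium was squeezed from the uterus on day 4 of pregnancy, after embryos were removed. Each of the 3 DHEA and 3 control samples was a pool of 3 mice, from 24 mice in all (12 per group), and the labels do not say whether pools of a group shared mice, so the spread between pools may be partly technical. RNA was digested with RNase R, which degrades linear RNA, before labelling, so each value is what was left of a linear transcript after digestion, not its abundance in the tissue. The labelled tissue could not be checked, since 35 of 36 marker genes of epithelium, stroma, smooth muscle, endothelium, macrophages, lymphocytes and red cells had no mRNA-accession probe, and the remaining one, Mzb1, marks antibody-secreting cells.

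ApoE is the protein of lipoproteins that binds receptors of the low-density lipoprotein family and brings cholesterol into cells. It is made by many cell types, macrophages and steroid-producing cells among them. Peroxiredoxin 2, encoded by Prdx2, is a cytosolic thiol peroxidase that removes hydrogen peroxide and is restored by thioredoxin. Pex11a encodes PEX11α, a peroxisomal membrane protein that helps peroxisomes elongate and divide, and its gene is a known target of the fatty acid receptor PPARα. Peroxisomes shorten very long chain fatty acids and both make and destroy hydrogen peroxide.

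All arrays carried 1 scan date and differing slide positions in their headers. They were taken from this to lie on 1 slide, whose identity was not read. Each probe was printed 10 times per array, and the level given here is the mean log2 of the processed intensity over spots with no outlier flag, minus the 75th percentile of the same measure over the circRNA probes of that array. That percentile ran from 219 to 300 intensity units (299.8 at the highest, control 3), with means of 277 ± 15.5 for DHEA and 259 ± 40.4 for control (SD, n = 3 each; two-sided exact permutation p = 0.6, adjusted to 0.7 over 4 array-wide measures). The smallest p that 3 arrays against 3 can give is 0.1. The 3 probes were well above background on every spot, none was saturated, and all lay above the brightest of the 15 probes named as negatives on each of the 6 arrays, Prdx2 by 1.21 to 1.58, Apoe by 3.31 to 4.00 and Pex11a by 6.09 to 6.95 on the log2 scale.

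Apoe was on average higher in DHEA, with overlapping groups. Its relative level (log2) was 2.83, 2.85 and 2.59 on DHEA arrays 1 to 3, and 2.72, 2.08 and 2.18 on control arrays 1 to 3. DHEA 1 and 2 were the highest and control 2 and 3 the lowest, while control 1 lay above DHEA 3, so the groups overlapped. Means were 2.76 ± 0.14 for DHEA and 2.33 ± 0.34 for control (SD, n = 3 each), a log2 difference of 0.43 with a standard error of 0.19 from limma, or 1.35-fold. DHEA was the higher in 8 of the 9 possible pairs of a DHEA and a control array. In a bulk sample, fewer cells of a type and less RNA per cell cannot be told apart, and this holds for each value here.

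Prdx2 parted the groups by a narrow margin. Its relative level was 0.61, 0.41 and 0.17 on DHEA arrays 1 to 3, and 0.014, 0.029 and 0.089 on control arrays 1 to 3. The control arrays lay close together and the DHEA arrays were spread out above them, with DHEA 3 only 0.080 above control 3. Means were 0.40 ± 0.22 for DHEA and 0.04 ± 0.04 for control (SD, n = 3 each), a log2 difference of 0.35 with a standard error of 0.15 from limma, or 1.28-fold, and DHEA was the higher in 9 of 9 pairs. Of the 50 mRNA-accession probes, 15 (30.0%) had groups that did not overlap with DHEA higher, Prdx2 among them, and 0 (0%) had DHEA lower without overlap.

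Pex11a went the other way with no separation. Its relative level was 5.36, 5.04 and 4.84 on DHEA arrays 1 to 3, and 5.67, 5.13 and 5.20 on control arrays 1 to 3. Control 1 was the highest and DHEA 3 the lowest, and DHEA 1 lay above both control 2 and control 3. Means were 5.08 ± 0.26 for DHEA and 5.33 ± 0.29 for control (SD, n = 3 each), a log2 difference of −0.26 with a standard error of 0.19 from limma, or 0.837 times the control level. DHEA was the higher in 2 of 9 pairs.

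**Figure D1:**
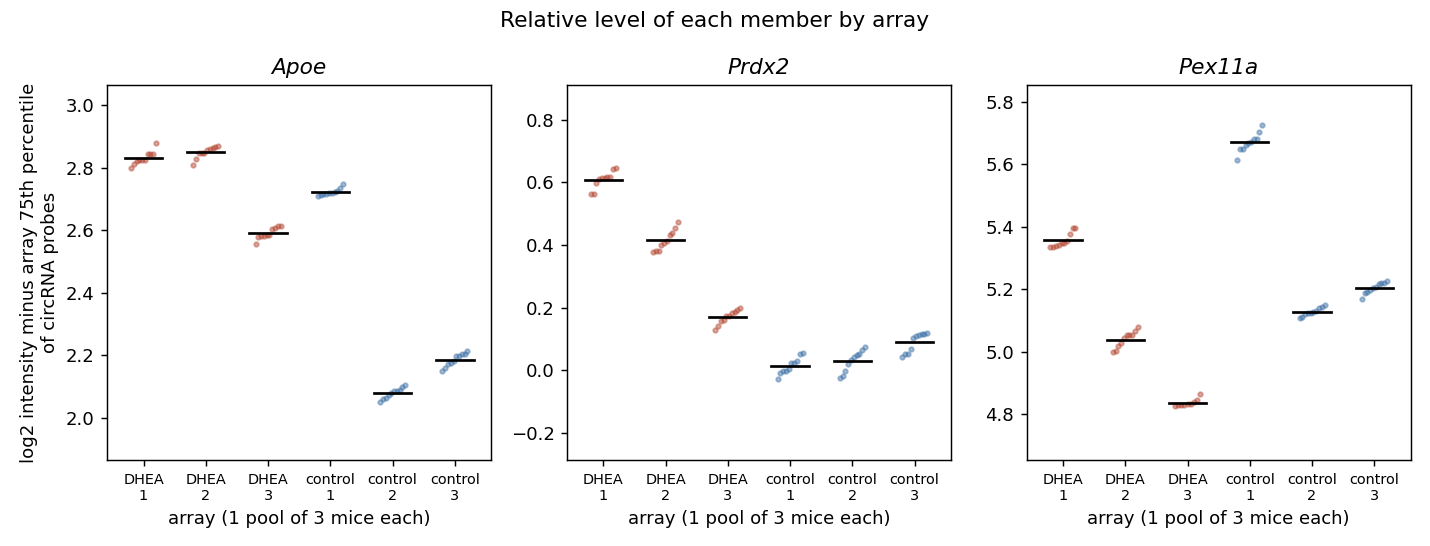
Relative level of Apoe, Prdx2 and Pex11a on each array (vertical axis: log2 processed intensity minus the array's 75th percentile over circRNA probes; each panel spans the same range). Dots are single spots without an outlier flag and black lines their mean. Spots of an array cluster tightly while arrays of a group lie apart, and only the Prdx2 panel, from 0.17 to 0.61 in DHEA against 0.014 to 0.089 in control arrays, shows groups that do not overlap.

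The spots show how little of this spread came from the printed spot itself. Replicate spots of a probe on an array had a median SD of 0.019 for Apoe, 0.030 for Prdx2 and 0.021 for Pex11a on the log2 scale. The residual SD between arrays of a group was 0.26, 0.16 and 0.28, which is 14.1, 5.32 and 13.1 times as large. Only 1 of the 180 member spots was left out as an outlier, a Pex11a spot on DHEA 3. Averaging over 10 spots therefore fixed each array's value well, and the 3 arrays per group set the precision of each difference. Across the 50 mRNA-accession probes the median residual SD was 0.17, so Prdx2 lay near it and Apoe and Pex11a above it.

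Which member's groups parted depended on the step that scales arrays to one another. Before scaling, Apoe had intensities of 2083, 1885 and 1664 on DHEA arrays 1 to 3 and of 1445, 1090 and 1363 on control arrays 1 to 3. Every DHEA array was thus brighter than every control array, as for 24.0% of the 50 probes. Prdx2 had intensities of 446, 349 and 311 in DHEA and of 221, 263 and 319 in control arrays, where control 3 passed DHEA 3, so its groups overlapped. Pex11a had 11995, 8605 and 7901 in DHEA and 11151, 9021 and 11052 in control arrays, with DHEA 1 the brightest of the 6. Control 1 had the lowest 75th percentile (219) and control 3 the highest (299.8), and dividing by them raised the first and lowered the second.

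**Figure D2:**
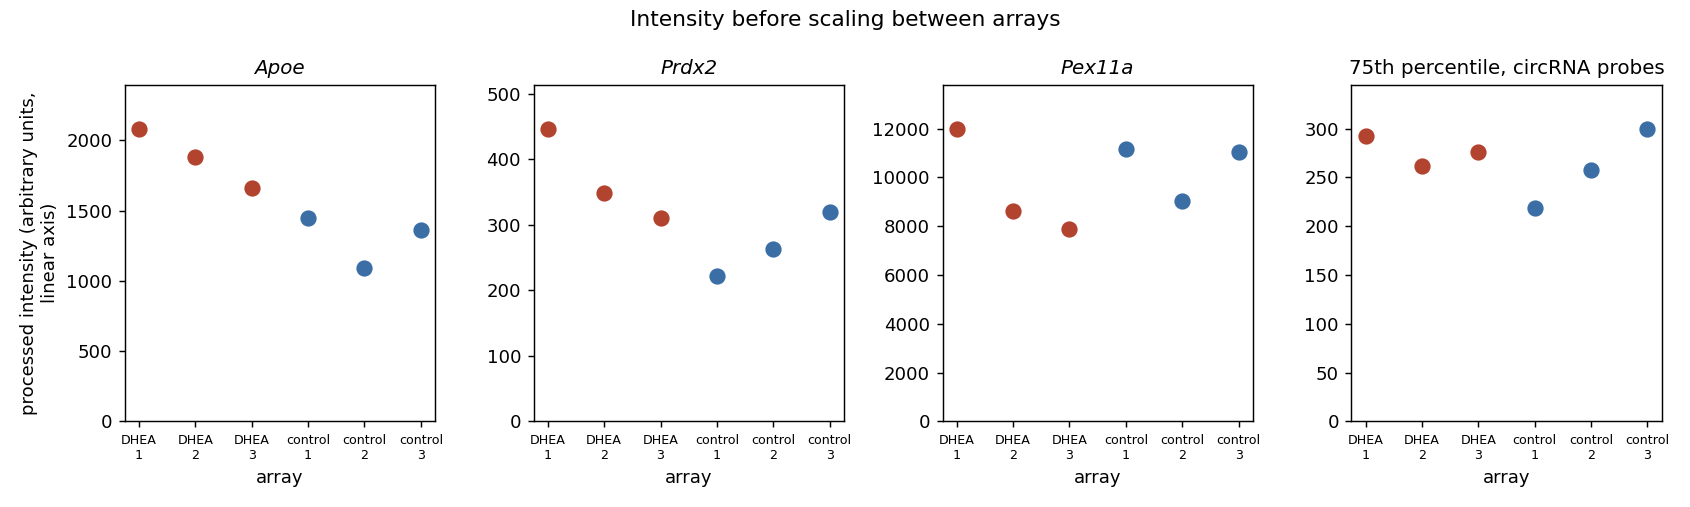
Processed intensity before scaling (linear axis from 0, arbitrary units) of Apoe, Prdx2 and Pex11a and the 75th percentile over circRNA probes on each array, with 1 point per array, DHEA in red and control in blue. The Apoe points of the DHEA arrays, 1664 to 2083, all lie above those of the control arrays, 1090 to 1445, while the other panels overlap.

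Over 12 ways of scaling or summarising the intensities, the unscaled one included, the groups did not overlap in 3 for Apoe, in 9 for Prdx2 and in 0 for Pex11a. The share of the 50 mRNA-accession probes that parted with DHEA higher was 30.0% as reported and 24.0% unscaled. It was not taken for the other ways, so these counts are not read as a trait of the members. The 3 for Apoe were the unscaled intensity, scaling to the mean of the negative-named probes (lowest DHEA array 0.035 above the highest control array) and quantile normalization (0.112 above). Prdx2 overlapped in the unscaled intensity, when scaled to the median circRNA probe (lowest DHEA minus highest control array, −0.003) and when scaled to the 14 circRNA-control probes (−0.276). Apoe and Prdx2 were higher in DHEA on average in all 12, and Pex11a was lower in 11 but higher by 0.30 when scaled to the circRNA-control probes. Those control probes, of unstated target, averaged −0.14 ± 0.54 for DHEA and 0.42 ± 0.37 for control (SD, n = 3 each; two-sided exact permutation p = 0.3, adjusted to 0.6), and scaling to them raises every probe's difference by 0.56.

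**Figure D3:**
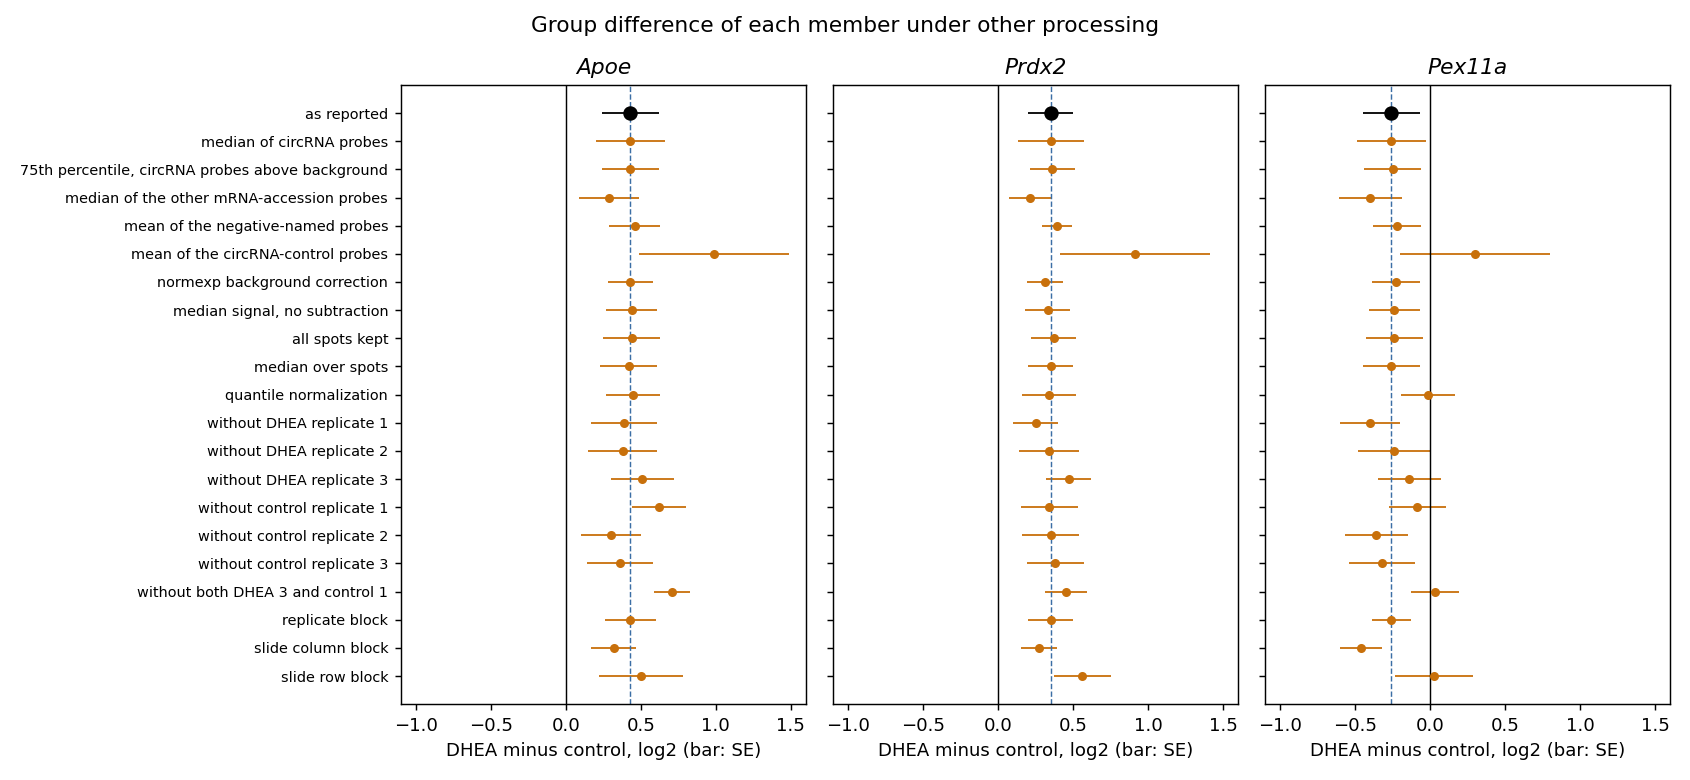
DHEA minus control difference (log2, bars are limma standard errors) of Apoe, Prdx2 and Pex11a as reported (black) and under each alternative (orange). The dashed line marks the reported value and the solid line 0. Apoe and Prdx2 stay to the right of 0 in each setting shown, and Pex11a crosses it when scaled to circRNA-control probes, without both DHEA 3 and control 1, and with the slide row as a block.

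The other linear transcripts gave the background for these differences. Much of that background was dim. The median of the other 47 probes lay below the brightest negative-named probe on every array but control 2. It was −1.319 against −0.976 on DHEA 1, and −1.37 against −1.505 on control 2. The 3 members lay above the brightest negative-named probe on all 6 arrays, so they are set beside many dimmer probes. By limma, 0 of the 50 mRNA-accession probes (0%) passed the Benjamini-Hochberg threshold of 0.05, and the same fit without empirical Bayes passed 0 as well. Before adjustment 14 probes had a p under 0.05, 13 higher (26.0%) and 1 lower (2.0%) in DHEA, against 11 without empirical Bayes. The differences had a median of 0.09 and quartiles of −0.05 and 0.34, with 31 higher and 19 lower in DHEA. The Apoe difference was exceeded by 8 of the 50 probes and the Prdx2 difference by 11, and 3 probes lay below Pex11a. Because the comparison was used to choose the members, nothing is read from these places. The median level of the other 47 probes was −1.29 ± 0.15 for DHEA and −1.43 ± 0.05 for control (SD, n = 3 each; two-sided exact permutation p = 0.2, adjusted to 0.6). It moved in the same direction as Apoe and Prdx2, and its part in their differences was not tested apart from scaling to it, which left 0.29 (SE 0.20) for Apoe, 0.21 (SE 0.14) for Prdx2 and −0.40 (SE 0.21) for Pex11a.

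**Figure D4:**
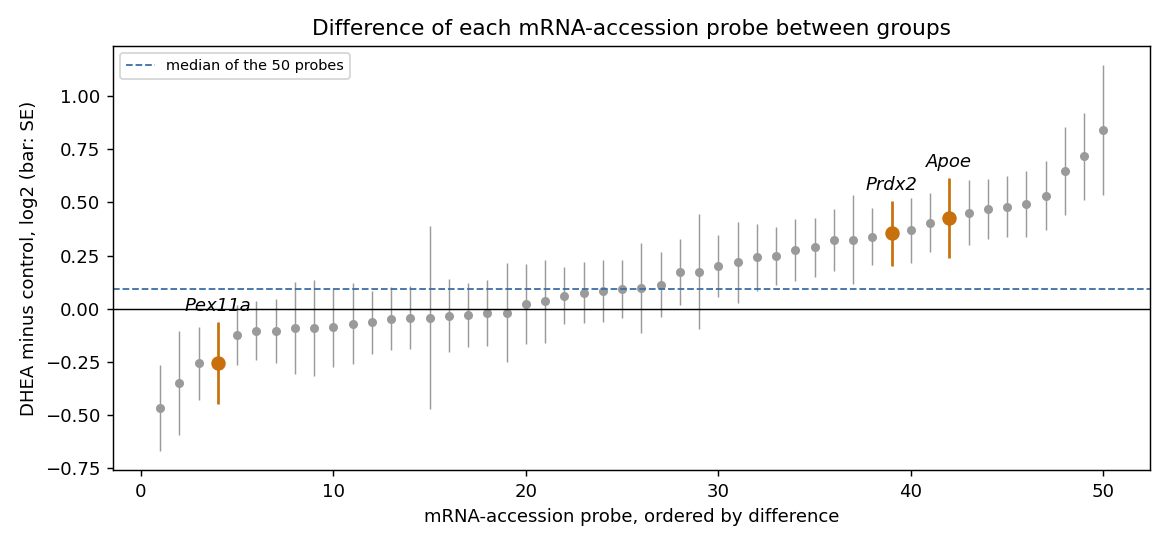
DHEA minus control difference of each of the 50 mRNA-accession probes (log2, bars are limma standard errors), ordered from lowest to highest, with Apoe, Prdx2 and Pex11a in orange. The dashed line is the median of the 50, at 0.09. Apoe (0.43) and Prdx2 (0.35) lie toward the upper end and 3 probes lie below Pex11a (−0.26).

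Slide position gave a further split. DHEA 2 and control 1 shared a slide column, and there the difference (log2, DHEA minus control) was 0.13 for Apoe, 0.40 for Prdx2 and −0.63 for Pex11a. In the column of DHEA 3 and control 2 it was 0.51 for Apoe, 0.14 for Prdx2 and −0.29 for Pex11a. The directions were the same in both columns, and the sizes changed places between Apoe and Prdx2. Slide row 1 held all control arrays and DHEA 1, and there DHEA 1 was 0.50 above the control mean for Apoe, 0.56 above it for Prdx2 and 0.023 above it for Pex11a. Row 2 held DHEA arrays only, so row and treatment cannot be told apart for DHEA 2 and 3.

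Single pools weighed on each of the 3 differences. Without control 1 the Apoe difference was 0.62, and without control 2 it was 0.30. The Pex11a difference was −0.088 without control 1, −0.14 without DHEA 3 and −0.40 without DHEA 1. Without DHEA 1 the Prdx2 difference fell to 0.25, and without DHEA 3 it was 0.47. No single omission turned the sign of any of the 3.

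Likeness of the profiles over the arrays was measured as the root mean square difference (log2) between the centred levels of a pair of probes over the 6 arrays, so that 0 means the same profile. It uses the same 6 levels that hold the group differences by which the members were chosen. The distances between the members, that of Apoe from Prdx2 included, are therefore partly fixed by that choice. It was 0.226 between Apoe and Prdx2, 0.359 between Apoe and Pex11a and 0.357 between Prdx2 and Pex11a, against a median over the 43 other probes with a symbol of 0.292 for Apoe, 0.232 for Prdx2 and 0.316 for Pex11a. The probes nearest to Prdx2 were those of Rab5a, a small GTPase of early endosomes (0.076), and Lhx1, a homeobox transcription factor (0.087), with group differences of 0.29 (SE 0.14) and 0.37 (SE 0.15). Nearest to Apoe were Olfr166, an olfactory receptor gene (0.201), and Cpt1a, the enzyme that lets long-chain fatty acids into mitochondria (0.213), with group differences of 0.28 (SE 0.14) and 0.08 (SE 0.15). Nearest to Pex11a were Bambi, a decoy receptor of TGF-β signalling (0.151), and Anxa8, an annexin (0.157), with group differences of −0.10 (SE 0.15) and −0.03 (SE 0.17). The mean levels of Rab5a (−2.15 in DHEA, −2.43 in control), Cpt1a (−1.57, −1.65) and Bambi (−3.42, −3.32) were low. Each was below the brightest negative-named probe of every array, which ranged from −1.505 (control 2) to −0.976 (DHEA 1). Their likeness is therefore not read as that of a measured transcript.

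Few other genes of the lists fixed for these pathways could be read, and the lists do not hold every related gene. Of 24 listed genes of lipid transport the array carried 1 as an mRNA-accession probe, Apoe itself. Of 27 redox genes it carried 1, Prdx2, and of 28 peroxisome genes it carried 2, Pex11a and Ppara, which encodes PPARα. The Ppara probe had intensities of 22.1, 16.3 and 18.0 on DHEA arrays 1 to 3 and of 16.0, 20.4 and 20.7 on control arrays 1 to 3. It was dimmer than the brightest negative-named probe on all 6 arrays, and its groups overlapped, with a log2 difference of −0.12 (SE 0.14). Outside the lists the array also carried Acaa2, Cpt1a, Gsta4 and Duox1. Their log2 differences were 0.32 (SE 0.15), 0.08 (SE 0.15), 0.10 (SE 0.21) and 0.02 (SE 0.19). Cpt1a and Gsta4 (means of −1.83 in DHEA and −1.92 in control for Gsta4) lay on average below the brightest negative-named probe of every array. The only cell type marker on the array, Mzb1, had a log2 difference of 0.47 (SE 0.14), with relative levels of −0.93, −0.97 and −1.17 in DHEA and −1.60, −1.37 and −1.50 in control arrays. It was dimmer than the brightest negative-named probe on control 1 and control 3. Like Apoe and Prdx2 it was higher in DHEA on average, as were 31 of the 50 probes. Among the control arrays, control 1 was the lowest for Mzb1 (−1.60) but the highest for Apoe (2.72). The part of Mzb1 in the differences of Apoe and Prdx2 was not tested.

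The sequence just upstream of each gene is shown because the mice were given an androgen precursor and the window can be searched for receptor half-sites. The 250 bases before the annotated start come from RefSeq (GRCm38.p6), matched by symbol for all 3 genes. The array's own design names mm9, and no coordinate of the probes was used. For Apoe the table lists 3 starts, and the one farthest upstream is shown (chr7:19699189-19699438, minus strand). Prdx2 lies on the plus strand (chr8:84969372-84969621) and Pex11a on the minus strand (chr7:79743132-79743381). Each is written 5′ to 3′, and capitals mark the match to a motif searched:
Apoe: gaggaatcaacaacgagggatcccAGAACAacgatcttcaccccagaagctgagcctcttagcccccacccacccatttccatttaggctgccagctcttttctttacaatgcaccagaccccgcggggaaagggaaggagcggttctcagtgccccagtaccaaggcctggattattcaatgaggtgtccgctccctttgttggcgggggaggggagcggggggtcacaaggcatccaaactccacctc
Prdx2: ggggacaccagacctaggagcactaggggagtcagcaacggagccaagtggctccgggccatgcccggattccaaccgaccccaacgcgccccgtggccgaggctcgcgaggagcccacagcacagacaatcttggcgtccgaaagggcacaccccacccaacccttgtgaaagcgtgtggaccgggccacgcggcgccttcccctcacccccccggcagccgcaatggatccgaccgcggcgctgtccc
Pex11a: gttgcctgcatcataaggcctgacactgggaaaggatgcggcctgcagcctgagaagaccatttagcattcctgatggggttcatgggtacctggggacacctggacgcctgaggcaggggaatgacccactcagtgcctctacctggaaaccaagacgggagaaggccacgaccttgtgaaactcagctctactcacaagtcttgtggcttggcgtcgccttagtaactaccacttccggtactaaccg
The motifs searched, on both strands and none containing another, were TATAAA (bound by TBP), CCAAT (bound by NF-Y), GGGCGG (bound by Sp1), AGGTCA (half-site of many nuclear receptors, PPARα among them), TGACNNNGC (core of the antioxidant response element) and AGAACA (half-site of the androgen and glucocorticoid receptors). The only match was AGAACA in the Apoe window, 226 to 221 bases before the start, a motif that 16.1% of 32851 promoter windows of this length hold. The windows of Prdx2 and Pex11a held none of these letters, which says nothing about the factors themselves. Of the other Apoe starts, the second held TATAAA on both strands (12.4% of windows hold it) and the third no match. The window of Prdx2 had 69.2% G and C, that of Apoe 57.2% and that of Pex11a 55.6%, against a median of 52.4% over all windows.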

How the data were processed

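Cy3-labelled RNA of 6 endometrial pools was read on 1-colour Agilent arrays. Per the file headers, the deposited files were written by Agilent Feature Extraction, version 11.0.1.1. They give a processed intensity, background-subtracted by that software, a median intensity of spot and local background, and flags per spot. The submitters' processing notes also name limma. The authors' table of circRNA values holds none of these probes and was not used. Groups and replicate numbers came from sample titles.

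Spots with an outlier flag were left out, log2 processed intensities of a probe's spots were averaged, and the array's 75th percentile over 14236 circRNA probes was subtracted. All 50 mRNA-accession probes, with no filter on dim ones, were fitted with limma 3.58.1 in R 4.3.3 (lmFit, eBayes), with Benjamini-Hochberg adjustment at 0.05, after a check of the script on simulated data. For array-wide values the test was an exact permutation test, two-sided. Named genes are the 3 members, listed pathway genes and markers on the array, and each member's 2 nearest probes. Acaa2, Gsta4 and Duox1 were named outside this rule. Members and lists were chosen with earlier results of these data known. Alternatives covered scaling, background correction, spots, blocks and omitted arrays. Normexp (offset 50) used the median intensity, as the files hold no mean. Array number limits the precision.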

Additional observations from a re-analysis of the deposited data

How the results depend on the processing

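The differences of Apoe (0.43) and Prdx2 (0.35) kept their sign under all 20 alternatives run for each, and that of Pex11a (−0.26) under 17 of 20. Scaled to the circRNA-control probes, which raises every probe alike, they became 0.99, 0.91 and 0.30. With the slide row as a block, which sets DHEA 1 alone against the controls, Prdx2 became 0.56 and Pex11a 0.023. Without both DHEA 3 and control 1, Apoe became 0.71 and Pex11a 0.032. With 1 array omitted, Apoe ranged from 0.30 to 0.62, Prdx2 from 0.25 to 0.47 and Pex11a from −0.40 to −0.088. Quantile normalization gave −0.018 for Pex11a. The count of mRNA-accession probes past the adjusted threshold, 0 as reported, was 4 under normexp correction, 1 for the unsubtracted median signal and 0 to 4 after leaving out an array. The count before adjustment, 14 as reported, was 9 with median scaling or scaling to the circRNA-control probes, 7 with scaling to the other mRNA-accession probes or the row block, 3 with the column block and 6 to 15 with 1 array omitted. With the replicate number as a block the differences stayed at 0.43, 0.35 and −0.26 and 0 probes passed. Same-numbered arrays deviated with correlations of 0.514, −0.329 and 0.099 across 14103 circRNA probes. With 3 arrays per group these cannot decide whether the numbers pair the samples, and the reported fit did not pair them. The cause of these changes was not tested beyond what each alternative fixes by its construction.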
